A study of Homo sapiens with 24 samples.

Results

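Box C/D small nucleolar RNAs (snoRNAs) of the SNHG1 host gene were examined in human cells that overexpressed a nuclear lamin. The members were SNORD22 and SNORD25 to SNORD31, taken by name among the annotated features that are not long non-coding RNA (lncRNA) intervals. They made up 8 of the 175946 features counted in the small RNA table, and the same 8 features were followed in the chromatin accessibility table. All samples were HEK293, an established human embryonic kidney line, with the genotype given as Wild Type. Each group overexpressed 1 protein: enhanced green fluorescent protein (eGFP, the control, called GFP here), LMNA (lamin A/C), LMNB1 (lamin B1) or LMNB2 (lamin B2). Lamins are the filament proteins under the inner nuclear membrane. Each group held 3 replicate libraries of small RNA sequencing, from total RNA enriched for small RNA, and 3 of ATAC-seq, which marks accessible DNA by transposase insertion. There were 24 libraries. The series concerns RNA polymerase III and chromatin structure. How the proteins were introduced, and whether the cells were a pool or a clone, is not given in the sources used here. The labels do not say that replicates were separate cultures, so p-values measure the spread between these samples, which may be technical.

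Box C/D snoRNAs form particles with the methyltransferase fibrillarin, and base pairing of the snoRNA with ribosomal RNA (rRNA) picks the nucleotide whose ribose is methylated. SNHG1, also known as the U22 host gene, is transcribed by RNA polymerase II, and its spliced RNA is not known to code for a protein. The snoRNAs lie in its introns and are trimmed from the intron after splicing, so 8 stable RNAs come from 1 precursor. SNORD26, SNORD29, SNORD30 and SNORD31 guide methylation of 28S rRNA, SNORD25, SNORD27 and SNORD28 that of 18S rRNA, and SNORD22 (U22) has been tied to the maturation of 18S rRNA.

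SNHG1 lies on the minus strand of chromosome 11, from 62851978 to 62855885 in RefSeq (GRCh38.p14), and the deposited interval with its highest counts runs from 62851849 to 62855910. Counted from the RefSeq start site, the 5′ ends of the snoRNA genes lie 254 bp (SNORD25) to 2850 bp (SNORD22) downstream. The order along the gene is SNORD25, SNORD26, SNORD27, SNORD28, SNORD29, SNORD30, SNORD31 and SNORD22, with gaps of 171 to 652 bp. SNORD22 is 126 bases long and the other 7 are 65 to 75 bases long. For all 8, the deposited interval began and ended 25 bases outside the RefSeq gene. SLC3A2, the gene for the heavy chain of the CD98 amino acid transporter, starts 224 bp upstream on the opposite strand. The 300 bases around the SNHG1 start site, chr11:62855836-62856135 (GRCh38.p14, RefSeq, minus strand, 250 bases before the start and 50 from it), are shown because accessibility peaked there and all 8 snoRNAs share this start:
SNHG1 promoter: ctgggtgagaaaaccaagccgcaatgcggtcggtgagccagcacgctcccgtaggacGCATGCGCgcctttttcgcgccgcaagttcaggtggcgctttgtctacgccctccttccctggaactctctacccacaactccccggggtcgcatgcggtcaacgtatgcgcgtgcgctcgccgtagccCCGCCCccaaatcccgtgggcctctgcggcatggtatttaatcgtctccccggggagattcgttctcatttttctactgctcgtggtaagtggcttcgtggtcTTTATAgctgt
Capitals mark matches to motifs searched on both strands. With the start base as position 0, GCATGCGC (part of the motif of the factor NRF1) begins at position -193 and was found in 3.05% of 35116 RefSeq promoter windows of this length. GGGCGG (a GC box) matched the opposite strand from position -64 and was found in 45.0% of windows. TATAAA matched the opposite strand from position 39, downstream of the start, and was found in 11.5%. CACGTG (an E-box, found in 7.26%) was not among these letters. The motifs were chosen after the sequence was seen, and a match is no measurement of binding.

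Small RNA totals ran from 132507051 to 195074742 counts per library and ATAC totals from 156043245 to 290158229 over the windows of the same features, in which overlapping features repeat reads, with 24.5 to 47.5% of ATAC counts on the mitochondrial chromosome. ATAC counts in the most covered window that overlaps each lamin gene matched the labels in all groups. The window at LMNA, for example, held 11040806 to 14817268 counts in LMNA libraries and 15201 to 19874 in GFP libraries. In small RNA, the most covered feature at LMNB1 had 122 to 143 CPM of library total in LMNB1 libraries and at most 1.52 elsewhere, and that at LMNB2 had 392 to 419 in LMNB2 libraries and at most 2.11 elsewhere. The feature at LMNA had 0.0197 to 0.0615 in the libraries labelled LMNA, 0.0221 to 0.0542 in GFP and 0.0631 to 0.113 in LMNB2. These values lie near the floor. They gave no sign of LMNA overexpression in small RNA, and at so few reads they cannot decide for or against it. The LMNA label there rests on the labels alone. Small RNA libraries of the GFP group stood apart in scaling, with scaling factors from TMM (trimmed mean of M values) of 0.631, 0.905 and 1.31 for GFP replicates 1, 2 and 3 against 0.878 to 1.16 in the lamin libraries. Of 9 microRNAs that mark hepatocytes, blood, muscle or neurons, none exceeded 8 counts in a library and MIR451A was at 0 throughout. Their summed level, in CPM (the count scaled to a common library size), ran from 0.0258 to 0.0661 in GFP libraries and from 0.0311 to 0.0759 in LMNA libraries. For LMNB1 it was 0.0184 to 0.0362, and for LMNB2 0.0213 to 0.0482. Markers that define kidney cells were not among the features used.

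The snoRNAs accounted for nearly all small RNA counts of their host gene. In each of the 12 libraries 99.9863 to 99.9955% of the counts in the SNHG1 interval fell on the 8 members, which cover 25.1% of its 4062 bases. Only 46 to 89 counts per library lay elsewhere in the host. The host interval had 8794, 5790.1 and 3031 CPM in GFP replicates 1 to 3 and 3743 to 5539 in the lamin libraries. The 8 snoRNAs together took 0.3964 to 0.5545% of all counts in a library. A further snoRNA interval in the host, named only RF00099 (from 62854136 to 62854310, between SNORD28 and SNORD29), had 0 to 4 counts. The deposited table holds 36 intervals named SNHG1, of which 7 span all members, and these repeat the members' reads, so the host gene gave no separate measure of its own spliced RNA.

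Levels of the 8 snoRNAs differed by orders of magnitude although they share 1 precursor. The level is given as TMM-scaled CPM per kilobase of deposited interval, as a mean ± SD over the 12 small RNA libraries of the 4 groups. SNORD29, a 28S guide at 62853904 to 62853968, had the highest level, 30004 ± 9235 CPM per kb, and ranked 3 among 195 tested box C/D snoRNAs. Its neighbour SNORD30 (62853663 to 62853732), also a 28S guide, followed with 5230.3 ± 1214. SNORD29 exceeded SNORD30 in each of the 12 libraries, by at least 3.51 and by a median of 5.96 times.

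The 28S guide SNORD26 (62855292 to 62855366) and the 18S guides SNORD27 (62855012 to 62855083) and SNORD25 (62855565 to 62855631) formed a middle group near the start of the gene. Their levels were 2474 ± 1157, 2029 ± 774 and 1702 ± 531 CPM per kb. These neighbours in the order were not well separated: SNORD26 was above SNORD27 in 9 of 12 libraries (ratio 0.874 to 1.42). SNORD27 was above SNORD25 in 12 of 12, by as little as 1.00 and as much as 1.76 times.

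The lowest levels were those of SNORD31, SNORD28 and SNORD22. SNORD31 (28S guide, 62853326 to 62853393) had 818 ± 186 CPM per kb. SNORD28 (18S guide, 62854621 to 62854695) had 90.4 ± 28.7 and SNORD22 (62852910 to 62853035) 55.6 ± 12.2, the last ranking 129 among the 195. SNORD31 was 5.35 to 14.5 times above SNORD28 within a library, and SNORD28 1.01 to 2.52 times above SNORD22. SNORD29 was a median of 488 times above SNORD22 (341 to 1035 in the 12 libraries). The complete order SNORD29, SNORD30, SNORD26, SNORD27, SNORD25, SNORD31, SNORD28, SNORD22 held in 9 of 12 libraries, and in the other 3 SNORD26 and SNORD27 changed places. With the interval length reduced by its 50 added bases the same order held in 5 of 12 libraries, the differences lying among SNORD25, SNORD26 and SNORD27. Neither rRNA target nor distance from the start sorted the levels: the most and the least abundant 28S guides, SNORD29 and SNORD31, lie 575 bp apart. How efficiently each RNA was captured in the libraries was not measured, so these levels compare counts per length.

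**Figure D1:**
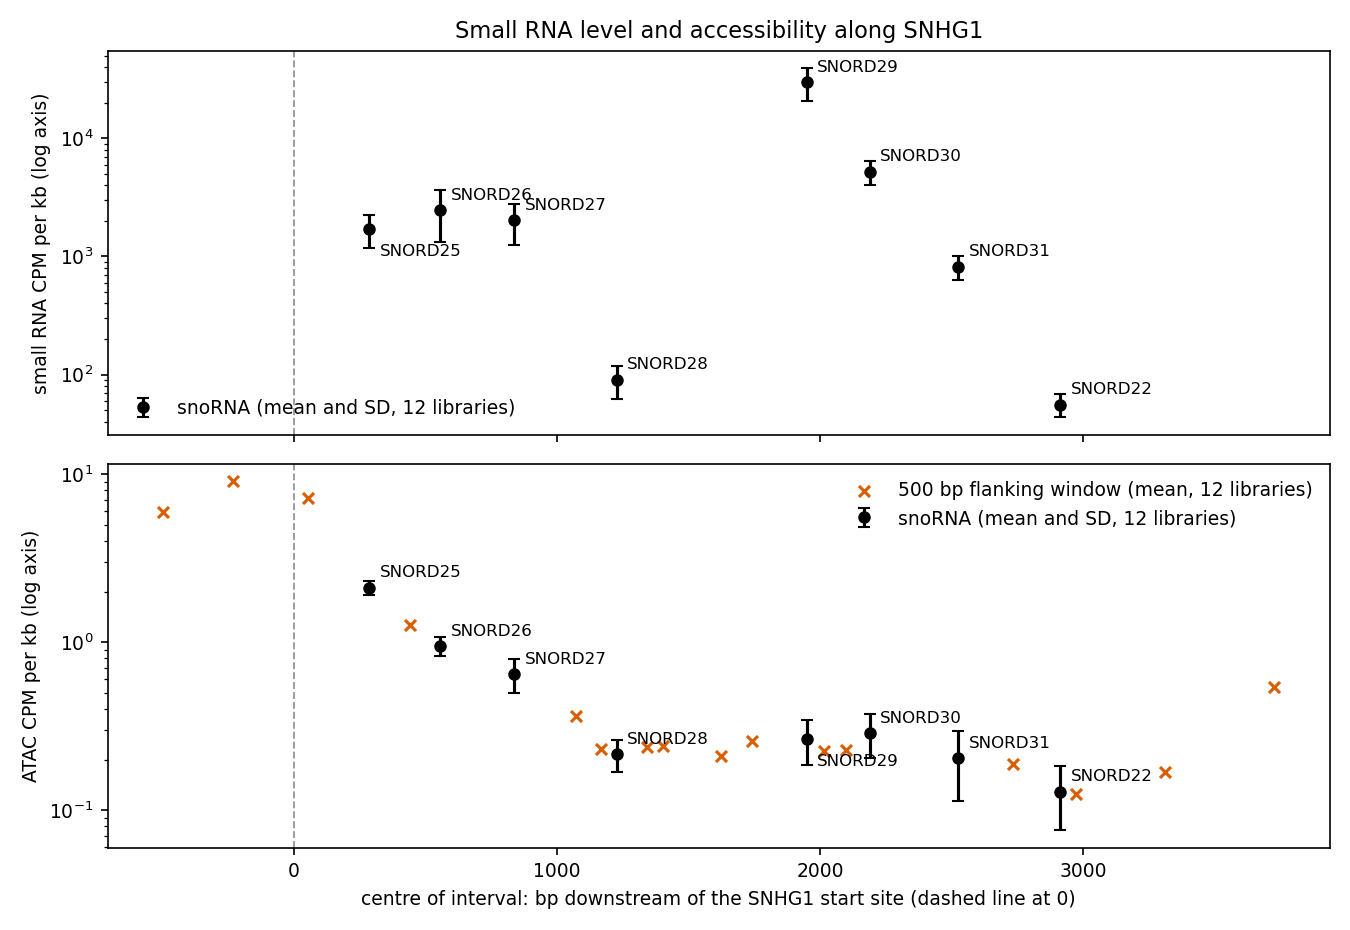
Mean level of each snoRNA in small RNA libraries (upper panel) and mean accessibility of its ATAC window (lower panel), both in CPM per kb on a log axis with SD over 12 libraries, against distance from the SNHG1 start site; crosses are flanking windows of 500 bp. Accessibility is highest at SNORD25 (2.11) and is 0.216 at SNORD28, while the small RNA level is highest at SNORD29 (30004).

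The make-up of the SNHG1 counts does not depend on scaling between libraries. SNORD29 took 61.4 to 76.5% of the member counts in a library, SNORD30 10.9 to 18.2%, SNORD26 3.75 to 8.21%, SNORD27 4.19 to 5.95%, SNORD25 2.29 to 5.24% and SNORD31 1.25 to 3.10%. SNORD28 took 0.201 to 0.253% and SNORD22 0.113 to 0.308%. One snoRNA thus made up most of the host's counts in every library.

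Each lamin was then compared with GFP, to ask whether the snoRNAs changed when a lamin was overexpressed. All 8 passed the filter on low counts in both assays. No member passed the test in small RNA for any lamin. In these bulk samples, fewer cells that express an RNA and less RNA per cell cannot be told apart. With all 12 libraries in the edgeR quasi-likelihood test, adjusted by Benjamini-Hochberg over the 33893 features tested, 0 of 8 members were called (adjusted p under 0.05) for LMNA, LMNB1 or LMNB2. DESeq2 also called 0 in each. At an unadjusted p under 0.05 the counts were 0, 0 and 1 of 8, where 5.46%, 5.51% and 19.9% of all features passed. The background of calls over all features was 0% for LMNA, 0.0384% for LMNB1 and 2.66% for LMNB2. Joint tests of the 4 groups (background 1.68%) and of the 3 lamins (1.93%) called 0 of 8, as did DESeq2, with 0 at an unadjusted p under 0.05 (15.9% and 16% of all features). The edgeR adjusted p ran from 0.421 to 0.695 in the first and from 0.326 to 0.848 in the second. On the TMM scale the lamin libraries overlapped those of GFP for all 8 members in each of the 3 comparisons. Over all features the groups were apart in 9.5%, 10.1% and 22.3%. With library totals alone, LMNA lay wholly above GFP in SNORD25 (229 to 265 against 120 to 208 CPM of library total). It did so in SNORD22 as well (9.54 to 12.9 against 5.92 to 8.97), as did LMNB2 (10.6 to 13.4). The shares of all features apart on that scale are not given here.

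SNORD29 had 6120.5, 4429 and 1861 CPM in GFP replicates 1 to 3, on the TMM scale. With LMNA it had 3331, 3162 and 3807. With LMNB1 it had 3286, 3485 and 3595, and with LMNB2 2572, 2662 and 3093. The GFP libraries were both the highest and the lowest of the 12, and every lamin library lay between them. The log2 fold changes against GFP were -0.27 ± 0.34 (SE) in LMNA, -0.26 ± 0.34 in LMNB1 and -0.58 ± 0.34 in LMNB2, with edgeR quasi-likelihood adjusted p of 0.972, 0.922 and 0.354. The 95% interval for LMNB2 ran from -1.28 to 0.13.

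SNORD26 had 722, 217 and 197 CPM in the GFP libraries and 349, 371 and 377 with LMNA. With LMNB1 it had 224, 200.03 and 233, and with LMNB2 259, 282 and 279. A single GFP library, replicate 1, was above all others, and the remaining GFP libraries lay with or below LMNB1. LMNB1 gave the largest difference from GFP among the 8 members and 3 lamins, -0.79 ± 0.37 on the log2 scale (95% interval -1.58 to 0.0027, edgeR quasi-likelihood adjusted p 0.861). LMNA gave -0.05 ± 0.37 and LMNB2 -0.47 ± 0.37.

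SNORD27 had 523, 243 and 174 CPM in GFP and 178, 200.5 and 202 in LMNB2. It was the only member with an unadjusted p under 0.05 against GFP in small RNA: -0.70 ± 0.31 (SE) in LMNB2, unadjusted p 0.0408 and adjusted p 0.23 by edgeR's quasi-likelihood test. All 3 LMNB2 libraries lay below GFP replicates 1 and 2 and above GFP replicate 3. In LMNA it had 275, 256 and 290.1 CPM and in LMNB1 197, 200.2 and 233, with log2 fold changes of -0.19 ± 0.31 and -0.58 ± 0.31.

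SNORD25 had 330, 133 and 139 CPM in the GFP libraries and 263, 240.1 and 273 with LMNA. With LMNB1 it had 158, 153 and 177, and with LMNB2 166, 181 and 179. On this TMM scale LMNA libraries again lay between the GFP extremes, above GFP replicates 2 and 3. The log2 fold changes were 0.37 ± 0.30, -0.30 ± 0.30 and -0.19 ± 0.30.

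The rarer members gave the same picture at lower counts, between 891 and 2530 reads per library for SNORD22 and SNORD28. SNORD28 had 21.7, 11.7 and 7.63 CPM in GFP, a spread that took in all 9 lamin libraries (8.31 to 12.8), and its log2 fold changes were -0.26, -0.38 and -0.51. SNORD22 had 12.5, 6.55 and 6.86 CPM in GFP and 7.50 to 12.8 in the lamin libraries, with log2 fold changes of 0.42, -0.02 and 0.28. It was the only member with a positive estimate in LMNB2.

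SNORD31 had the tightest GFP libraries, 109.7, 89.2 and 92.5 CPM. Its lamin libraries ran from 69.5 to 155 CPM, and its log2 fold changes were 0.32 ± 0.24, -0.21 ± 0.24 and -0.20 ± 0.24. SNORD30 had 955, 661 and 553 CPM in GFP and 450.0 to 854 in the lamin libraries, with log2 fold changes of -0.02 ± 0.26, -0.34 ± 0.26 and -0.52 ± 0.26.

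**Figure D2:**
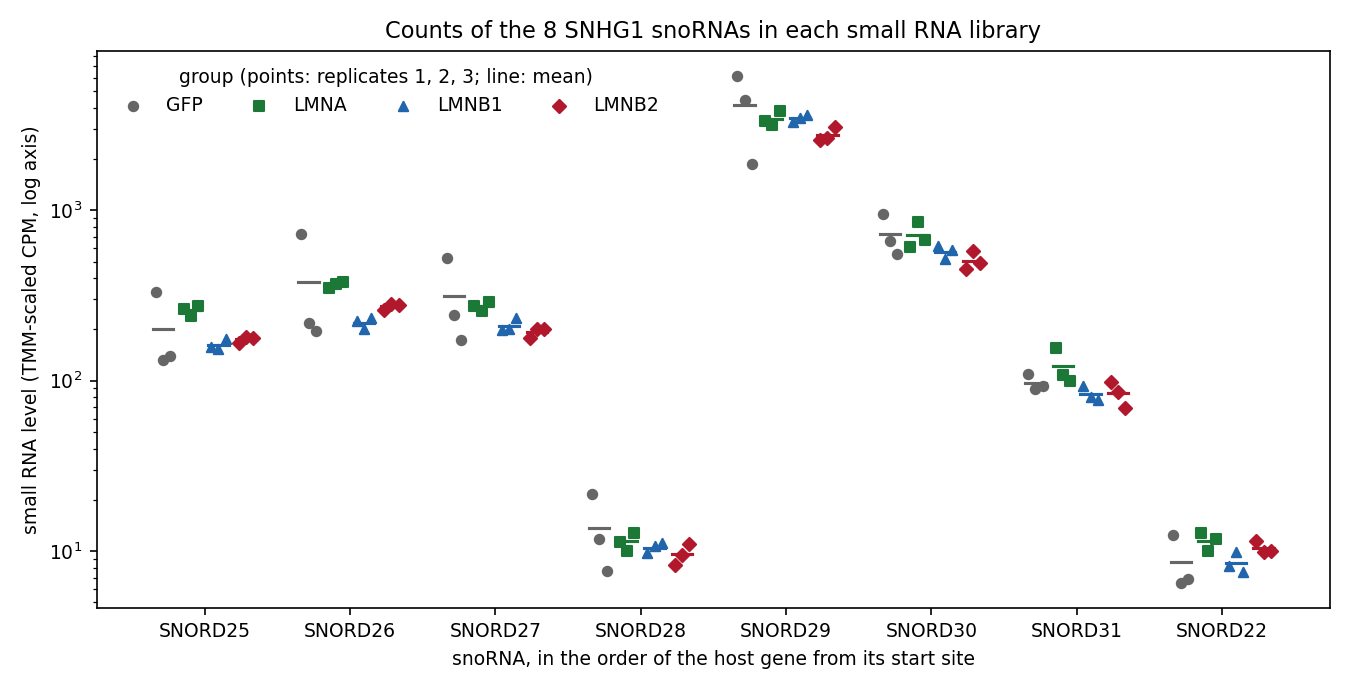
Level of each snoRNA in every small RNA library, in TMM-scaled CPM on a log axis, by group; points are replicates 1, 2 and 3 from left to right and lines are group means. GFP replicate 1 is the highest GFP library for all 8 snoRNAs, and for SNORD29 the 9 lamin libraries lie between the GFP extremes of 1861 and 6120.5.

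The median log2 fold change of the 8 members was -0.04 in LMNA, -0.32 in LMNB1 and -0.49 in LMNB2, against -0.05, -0.05 and -0.04 over all tested features. GFP replicate 1 was the highest GFP library for 8 of 8 members on the TMM scale and for 4 of 8 when counts were divided by library totals alone, and the part of the scaling factors in these values was not tested. Without GFP replicate 1 the medians were 0.39, 0.09 and -0.07. Without GFP replicate 3, SNORD27, SNORD28 and SNORD29 were called lower in LMNB2, with log2 fold changes of -0.94, -0.76 and -0.88 and edgeR quasi-likelihood adjusted p of 0.0184, 0.0345 and 0.0109. In that fit 2101 of 36091 features were called in LMNB2, against 901 of 33893 in the main fit. The joint test of the 4 groups called 2 members without GFP replicate 1 and also without GFP replicate 3. That of the 3 lamins called 2 without GFP replicate 1. Shares over all features in these joint fits are not given here. Library totals alone gave medians of 0.13, -0.04 and -0.06, beside -0.04, 0.12 and 0.21 for all features, and on that scale SNORD22, SNORD25 and SNORD29 had positive estimates in LMNB1, as did SNORD22, SNORD25 and SNORD31 in LMNB2.

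**Figure D3:**
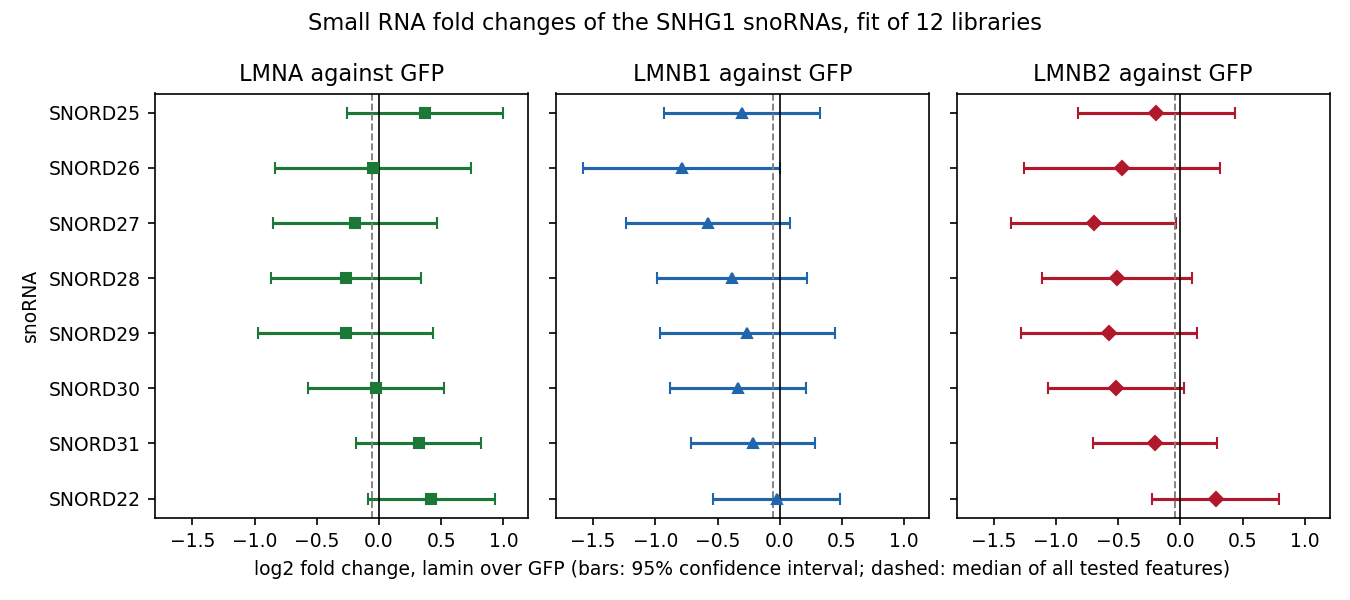
Log2 fold change of each snoRNA in each lamin group over GFP in small RNA, with 95% confidence intervals from the fit of 12 libraries; the dashed line is the median of all tested features. Of the 24 intervals only that of SNORD27 in LMNB2 (-1.36 to -0.03) leaves out 0.

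On the TMM scale each lamin group was less spread than GFP (highest over lowest library) in 7 of 8 members. The exception was SNORD31, with 1.23 in GFP against 1.55 in LMNA and 1.41 in LMNB2. With library totals alone the GFP spread fell from 3.29 to 1.64 for SNORD29 and from 1.73 to 1.21 for SNORD30. On that scale SNORD30 was more spread in LMNA (584 to 814 CPM of library total) than in GFP (597 to 723). The joint test of the 3 lamins was also fitted on the 9 lamin libraries alone. In that fit (32275 features tested, background of calls 12%) 5 of 8 members were called, namely SNORD25, SNORD26, SNORD27, SNORD29 and SNORD30. Their Benjamini-Hochberg adjusted p in the edgeR quasi-likelihood test were 0.000116, 7.08e-05, 0.00339, 0.0337 and 0.02. The biological coefficient of variation was 0.158, against 0.227 with the GFP libraries. Without LMNB1 replicate 3 the joint test called 3 members (share over all features not given here). Pairs of lamins were compared after this result was seen, in the same fit. With all 12 libraries edgeR called 0 of 8 members in each pair, beside 0.0118% (LMNB1 against LMNA), 2.01% (LMNB2 against LMNA) and 2.19% (LMNB2 against LMNB1) of all features, with 2, 1 and 0 members at an unadjusted p under 0.05. DESeq2 was not run for the pairs.

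LMNB1 was called lower than the libraries labelled LMNA in SNORD25 and SNORD26. The difference was -0.67 ± 0.10 (SE, log2) for SNORD25 and -0.74 ± 0.10 for SNORD26, or 0.628 and 0.599 times the LMNA level, with edgeR quasi-likelihood adjusted p of 0.000756 and 0.000227. All 3 LMNB1 libraries lay below all 3 LMNA libraries in 5 of 8 members, while 7.57% of all features did so. The opposite order was seen in 0 members and in 6.22% of all features. Shares among other box C/D snoRNAs are not given here. Against GFP, the median log2 fold change of 152 other box C/D snoRNAs was 0.14 in LMNA and -0.18 in LMNB1. For the 10 snoRNAs of another host gene, GAS5, it was -0.16 and -0.43. A lower level in LMNB1 than in LMNA was thus not particular to SNHG1. Calls made up 2 of 8 members, beside 0.812% of all features. Both calls were kept in 14 of 15 alternative fits each, the exception being the fit with all 12 libraries (adjusted p 0.832 and 0.841). The size depended on scaling: TMM over box C/D snoRNAs outside SNHG1 gave -0.37 and -0.44, with edgeR adjusted p of 0.0414 and 0.0247. Without LMNA replicate 2, 4 members were called (share over all features not given here). SNORD29 differed by 0.01 ± 0.09 in the same comparison. The estimates did not follow the order along the gene. SNORD31 and SNORD22, the last in the gene, had -0.53 ± 0.17 and -0.44 ± 0.13 without a call. SNORD27, SNORD28 and SNORD30, also not called, had -0.38, -0.12 and -0.31.

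LMNB2 was lower than the libraries labelled LMNA in the 5 members named above. The log2 differences were -0.56 ± 0.10 for SNORD25, -0.42 ± 0.10 for SNORD26, -0.50 ± 0.10 for SNORD27, -0.30 ± 0.09 for SNORD29 and -0.49 ± 0.12 for SNORD30. In edgeR's quasi-likelihood test the adjusted p ran from 0.000821 (SNORD25) to 0.0355 (SNORD29). Of all features 10.4% were called in this comparison. All LMNB2 libraries lay below all LMNA libraries in 6 of 8 members, beside 13.8% of all features, and above them in 0 (15.2%). Against GFP, the median of 152 other box C/D snoRNAs was 0.14 in LMNA and -0.18 in LMNB2, and that of 10 GAS5 snoRNAs -0.16 and -0.65. The opposite order was seen for 4 RPL13A snoRNAs (0.25 and 0.35) and 11 features of rRNA-processing snoRNAs (0.28 and 0.78). The member calls for LMNB2 against LMNA depended on scaling. Library totals alone called only 1 member, as did TMM scaling over box C/D snoRNAs outside SNHG1. That member was SNORD25 in both (-0.34 and -0.28 on the log2 scale). The shares of all features called with these scalings are not given here, so whether the loss was particular to the members cannot be told.

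LMNB2 and LMNB1 differed in opposite directions in 2 members. SNORD26 was higher in LMNB2 by 0.32 ± 0.10 and SNORD29 lower by 0.31 ± 0.09 on the log2 scale, with edgeR quasi-likelihood adjusted p of 0.0343 and 0.0312, where 9.83% of all features were called. LMNB2 lay wholly below LMNB1 in 1 member (14.3% of all features) and wholly above it in 2 (16%). Leaving out a single LMNB1 or LMNB2 library gave 0 or 1 calls in each case. The matching shares over all features are not given here, so whether the loss of calls was particular to the members cannot be told.

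The shares within the SNHG1 counts need no scaling between libraries. They come from the same counts in which SNORD25, SNORD26 and SNORD29 had been called, so they are no separate evidence. Shares within a library also depend on each other: a larger share of SNORD29 lowers those of the other members. SNORD25 made up 4.79 to 5.24% of member counts in LMNA, 3.28 to 3.59% in LMNB1 and 4.13 to 4.51% in LMNB2, with no overlap among the 3 groups. SNORD26 made up 6.81 to 7.41% in LMNA, 4.29 to 4.89% in LMNB1 and 6.44 to 7.04% in LMNB2, so LMNB1 stood apart. SNORD29 made up 63.1 to 68.7% in LMNA, 71.6 to 74.8% in LMNB1 and 66.5 to 71.4% in LMNB2. The GFP libraries covered 2.29 to 4.58%, 3.75 to 8.21% and 61.4 to 76.5% for these snoRNAs, a range that contained LMNB1 and LMNB2 in all 3 and LMNA in SNORD26 and SNORD29.

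**Figure D4:**
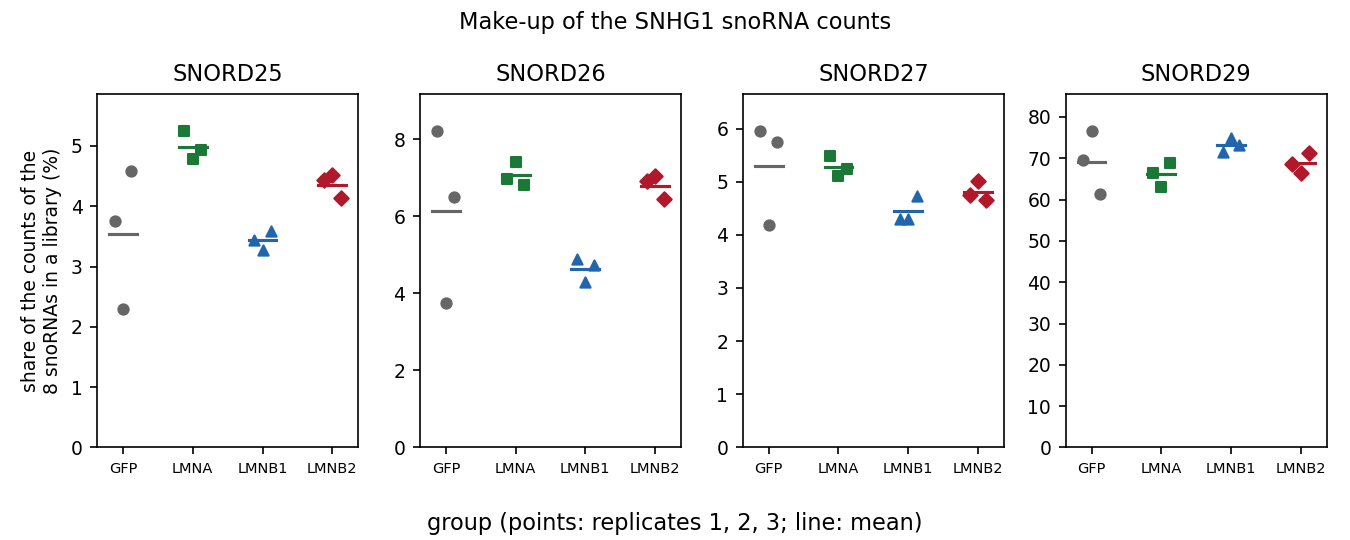
Share of the counts of the 8 snoRNAs taken by SNORD25, SNORD26, SNORD27 and SNORD29 in each small RNA library, in percent, by group; lines are group means. The LMNB1 libraries lie below the LMNA libraries for SNORD25 (3.28 to 3.59% against 4.79 to 5.24%) and above them for SNORD29, and the GFP libraries are the most spread.

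Chromatin accessibility was highest over SNORD25, nearest the start of SNHG1, lower over SNORD26 and SNORD27, and low without a further order by distance over the other 5. Each ATAC window reached 125 bp beyond the small RNA interval on each side, so 5 of the 7 neighbouring pairs of windows overlapped by 10 to 129 bp and share reads. The mean level was 2.11 ± 0.191 CPM per kb (SD, 12 libraries) at SNORD25, 0.949 ± 0.125 at SNORD26 and 0.645 ± 0.145 at SNORD27. It was 0.216 at SNORD28, 0.264 at SNORD29, 0.288 at SNORD30, 0.204 at SNORD31 and 0.129 at SNORD22. Windows of 500 bp centred 231.5 bp upstream and 51.5 bp downstream of the start site held 9.07 and 7.23 CPM per kb, the first of them also covering the start of SLC3A2. SNORD29, 17.6 times above SNORD25 in small RNA per kb, was 7.97 times below it in accessibility. The plot of levels along the host gene shows both profiles.

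No snoRNA window passed in ATAC. For LMNA, LMNB1 and LMNB2 against GFP 0 of 8 members were called by edgeR's quasi-likelihood test and 0 by DESeq2, with 1, 0 and 0 at an unadjusted p under 0.05 (5.19%, 4.78% and 5.72% of all windows). The background over 163786 windows was 0.000611%, 0.00305% and 0.00244%. The joint tests of 4 groups and of 3 lamins also called 0 by both tools (0.0421% and 0.0916% of all windows), with 0 members at an unadjusted p under 0.05 (5.81% and 6.24%). Median log2 fold changes of the members were 0.13, 0.09 and 0.01, against 0.00 over all windows in each comparison. Relative to the 5000 bp flanks the medians in LMNA, LMNB1 and LMNB2 were -0.066, 0.0016 and -0.084, with no test.

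SNORD27 had the highest positive ATAC difference. Its window held 29, 35 and 31 counts in the GFP libraries and 65, 41 and 73 with LMNA. With LMNB1 it held 79, 66 and 66, and with LMNB2 47, 80 and 69. In CPM per kb this was 0.492, 0.552 and 0.43 in GFP and 0.874, 0.627 and 0.69 in LMNA. LMNA and LMNB1 lay above all GFP libraries, and LMNB2 overlapped them. The log2 fold changes were 0.57 ± 0.26 (unadjusted p 0.0373, edgeR quasi-likelihood adjusted p 0.957), 0.53 ± 0.26 and 0.40 ± 0.26.

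Groups did not overlap in a few other windows. SNORD25 was also above GFP in LMNA (0.20 ± 0.14 on the log2 scale), while SNORD29 was below GFP in LMNA (-0.40 ± 0.41) and LMNB1 (-0.61 ± 0.41) and SNORD30 below it in LMNB1 (-0.55 ± 0.38). Over all windows, LMNA lay wholly above GFP in 4.81% and wholly below in 4.74%, and LMNB1 in 4.62% and 3.84%. No member was apart from GFP in LMNB2 (5.59% and 4.72% of windows). From SNORD28 to SNORD22 the windows held only 2 to 36 counts per library, the SEs of their log2 fold changes were 0.38 to 0.58, and their 95% intervals reached as far as -1.44 and 1.54.

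Other snoRNA groups give the setting in small RNA. GAS5, like SNHG1, is a non-coding host gene with many box C/D snoRNAs. All 10 of its snoRNAs were tested and 0 were called against GFP by edgeR's quasi-likelihood test (1, 0 and 3 at an unadjusted p under 0.05), with medians of -0.16, -0.43 and -0.65. Its most abundant member, SNORD44, had a mean of 8061 CPM in GFP and 5031 in LMNB2 (-0.68 ± 0.33). Among 15 snoRNAs of other non-coding hosts 1 was called, higher in LMNB2, and their medians were 0.14, -0.16 and -0.18. Of 4 snoRNAs of the protein-coding host RPL13A 1 was called, higher in LMNB2. The 11 features of rRNA-processing snoRNAs, among them copies of SNORD3 (U3) that can share reads, had 7 calls, all higher in LMNB2. Over all features 1.91% were called higher and 0.752% lower in LMNB2. Among 152 other box C/D snoRNAs tested (of 207) 1 was called higher and 1 lower in LMNB2, with medians of 0.14, -0.18 and -0.18.

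Members varied together to different degrees across the 12 small RNA libraries, which share the 4 groups and their scaling. Over the 28 pairs the Pearson correlation of log2 levels had a median of 0.65, and of 0.47 without GFP replicate 1. It was highest for SNORD27 with SNORD28 (0.95) and SNORD25 with SNORD26 (0.94) and lowest for SNORD29 with SNORD31 (0.15) and SNORD30 with SNORD22 (0.17). Both of the highest pairs are neighbours in the gene, as are SNORD28 with SNORD29 (0.92) and SNORD26 with SNORD27 (0.90). The neighbours SNORD29 with SNORD30 (0.64), SNORD30 with SNORD31 (0.44) and SNORD31 with SNORD22 (0.51) lay below the median. Among 1657 other features of at least median level, those most like the mean profile of the 8 members were SNORD56 (0.99), SNORD58B (0.99), SNORD126 (0.98), SNORD80 (0.97) and SNORD65 (0.97). These are all box C/D snoRNAs, and 43 features exceeded 0.9, where the median was 0.05.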

How the data were processed

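Small RNA and ATAC-seq counts of HEK293 libraries were used as the authors deposited them: whole-number raw counts per annotated feature, 12 libraries per assay. The genome build is GRCh38 per the submitters' processing notes. The aligner, counting tool, use of strand, treatment of multiply mapped or duplicate reads and any ATAC shift are not given in the sources used here. Overlapping features were each given the same reads. Groups came from the sample titles. All 12 libraries of an assay were fitted in edgeR 4.0.16 (R 4.3.3) with filterByExpr, TMM scaling and robust quasi-likelihood tests, with Benjamini-Hochberg adjustment over all tested features. Confidence intervals are at 95%. The edgeR tests of LMNA and LMNB2 against GFP were tried on simulated small RNA counts. The ATAC fits, DESeq2, the joint tests and the pairs of lamins were not. The main fits did not pair libraries by replicate number. Same-numbered lamin and GFP libraries correlated by -0.039 to 0.226 in small RNA, and differently numbered ones by -0.194 to 0.063. Some same-numbered pairs thus lay above all others, and whether they belong together is not known. The labels' batch is constant within an assay. The snoRNAs, lists and named features (all 8 members, the host, the 5 most similar features and up to 3 of a list) were chosen with earlier results of these data known. Alternatives were other scalings, filters, DESeq2 1.42.0, subsets of libraries and a replicate block. Sequences of the snoRNAs are not printed here.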

Additional observations from a re-analysis of the deposited data

How the results depend on the processing

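In the 12-library fits no setting that kept all replicates called a member against GFP in either assay, and 467 of 504 small RNA and 497 of 528 ATAC alternative estimates of single members kept their direction. With library totals as the only scaling, small RNA estimates against GFP changed sign for SNORD26 (0.19) and SNORD30 (0.069) in LMNA, SNORD25 (0.0047), SNORD29 (0.080) and SNORD22 (0.23) in LMNB1, and SNORD25 (0.19) and SNORD31 (0.057) in LMNB2. On that scale the ATAC median of the members in LMNB1 moved to 0.29, and the median over all windows moved from -0.0017 to 0.19. Taken relative to their 5000 bp flanks, a value with no test, ATAC differences changed sign for SNORD26 (-0.13), SNORD28 (-0.0038), SNORD31 (-0.30) and the median (-0.066) in LMNA. They also did so for SNORD25 (-0.17) and SNORD26 (-0.18) in LMNB1, and for SNORD25 (-0.11), SNORD26 (-0.057) and the median (-0.084) in LMNB2. The small RNA median in LMNA, -0.04, was 0.13 with library totals, 0.031 without a count filter, 0.041 with a replicate block and 0.0026 with only the libraries compared. TMM scaling over box C/D snoRNAs outside SNHG1, chosen after seeing the data, gave 0.16 for SNORD22 in LMNB1 and 0.023 for SNORD25 in LMNB2. Without a count filter SNORD26 (0.023) and SNORD30 (0.039) in LMNA and SNORD22 (0.025) in LMNB1 changed sign. With only the libraries compared SNORD30 had 0.016 in LMNA, and the joint test of the 3 lamins called 5 members. The order of levels held in 5 libraries with 50 bases taken from each length. The cause of these changes was not tested.

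The main fits did not pair libraries by replicate number. Same-numbered lamin and GFP libraries correlated by -0.052 to 0.166 in ATAC, and differently numbered ones by -0.13 to 0.064. A replicate block gave 0 member calls against GFP and turned SNORD26 in LMNA to 0.10 and SNORD22 in LMNB1 to 0.025. Calls over all ATAC windows in LMNA against GFP went from 1 to 60 with the block. Over all small RNA features in LMNB2 against GFP they went from 901 to 729. With the block the 9 lamin libraries gave 4 calls for LMNB1 against LMNA, 6 for LMNB2 against LMNA, 2 for LMNB2 against LMNB1 and 6 in the joint test. The shares of all features called in these lamin comparisons with the block are not given here.

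The pairs of lamins, and all their alternatives, were chosen after seeing the data. For LMNB1 against LMNA the count of 2 calls became 0 with all 12 libraries, and SNORD28 changed sign to 0.036 with library totals and 0.18 with C/D scaling. For LMNB2 against LMNA the count of 5 became 0 with 12 libraries, 1 with library totals, 1 with C/D scaling and 2 without lncRNA features. There SNORD28 turned to 0.034 with C/D scaling, and SNORD22 to 0.090 with library totals, 0.15 with C/D scaling and 0.042 without lncRNA features. For LMNB2 against LMNB1 the count of 2 became 0 with 12 libraries, 1 with library totals and 1 without lncRNA features, and SNORD31 turned to -7e-04 with C/D scaling. The joint count of 5 became 0, 2, 3 and 3 with 12 libraries, library totals, C/D scaling and no lncRNA features. Except for the fit with all 12 libraries, the shares of all features called in these alternatives are not given here.

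Leaving out 1 library at a time moved estimates across 0 as follows, as lowest to highest log2 values. For LMNA against GFP in small RNA these were SNORD26 (-0.31 to 0.80), SNORD27 (-0.42 to 0.38), SNORD28 (-0.49 to 0.22), SNORD29 (-0.55 to 0.11) and SNORD30 (-0.16 to 0.21). For LMNB1 against GFP in small RNA these were SNORD25 (-0.52 to 0.25), SNORD26 (-1.06 to 0.076), SNORD27 (-0.81 to 0.0066), SNORD28 (-0.62 to 0.11), SNORD29 (-0.56 to 0.13) and SNORD22 (-0.18 to 0.33). For LMNB2 against GFP in small RNA these were SNORD25 (-0.42 to 0.36) and SNORD26 (-0.75 to 0.39). For LMNA against GFP in ATAC these were SNORD26 (-0.044 to 0.11), SNORD28 (-0.10 to 0.39), SNORD31 (-0.66 to 0.51) and SNORD22 (-0.092 to 0.71). For LMNB1 against GFP in ATAC these were SNORD25 (-0.061 to 0.11), SNORD26 (-0.13 to 0.22) and SNORD22 (-0.27 to 0.53). For LMNB2 against GFP in ATAC these were SNORD25 (-0.039 to 0.089), SNORD26 (-0.064 to 0.099), SNORD31 (-0.66 to 0.087) and SNORD22 (-0.034 to 0.77). For LMNB1 against LMNA in small RNA this was SNORD29 (-0.033 to 0.093). For LMNB2 against LMNB1 in small RNA this was SNORD31 (-0.11 to 0.13). The count of members called ran from 0 to 3 for LMNB2 against GFP, from 0 to 2 in the joint test of the 4 groups and from 0 to 2 in that of the 3 lamins in the 12-library small RNA fit. Over all features the count for LMNB2 against GFP ran from 51 to 2101 with a library left out. In the 9 lamin libraries the count of members called ran from 2 to 4 for LMNB1 against LMNA, 4 to 5 for LMNB2 against LMNA, 0 to 2 for LMNB2 against LMNB1 and 3 to 6 in the joint test. The matching shares over all features are not given here. The counts behind the ATAC windows from SNORD28 to SNORD22 (2 to 36 per library) limit those estimates.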
